A study of Tribolium castaneum with 2 samples.

Results

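Whole genome bisulfite sequencing (WGBS) was examined for the unplaced sequences of the *Tribolium castaneum* assembly whose positions were covered by few reads. The DNA came from 2 replicates of pooled eggs of the GA-2 strain, 24 h to 48 h old, which were untreated and form 1 condition without a comparison group. GA-2 is also the strain of the beetle's reference assembly, and the sex of the embryos in the pools was not determined. Each table gives, for every listed position, the number of reads in which the cytosine was unconverted and the number in which it was converted, without strand and without sequence context. Numbers of reads summed over positions count a read once at each listed position that it covers, and are not numbers of molecules. An unplaced sequence (its name begins with LGUn) is a piece of the assembly that is not assigned to any of the 10 linkage groups, which are the X and 9 autosomes. Unplaced sequences were chosen when they had at least 30 positions listed in either replicate and a median under 3 reads per position, where the reads of the replicates were summed and a position not listed in a replicate counted as 0. By this rule 669 of 2137 unplaced sequences were chosen, out of 2313 sequences in all. They held 859193 of the 19983652 listed positions (4.30%) and 3.13% of all reads, which were 1295409 reads in replicate 1 and 1782099 in replicate 2. Of the other unplaced sequences, 1442 had a median of 3 or more and 26 had too few positions to be judged. No comparison between treatments was possible, and the classes of sequence were compared within each replicate.

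Bisulfite turns an unmethylated cytosine into uracil, which is read as T, while a methylated cytosine is still read as C. Methylation of CpGs is kept up by DNMT1, and in holometabolous insects that possess it, it lies mainly in gene bodies. Unplaced sequences of an insect assembly are often rich in repeats, or come from heterochromatin, from haplotypes that were assembled apart, or from a sex chromosome that is hard to assemble. The beetle has an X and a small y chromosome, and only males carry the latter. With as many males as females in a pool, there would be 0.75 copies of the X and 0.25 copies of the y for each copy of an autosome. A read that fits several places in the assembly equally well may be discarded or given to 1 of them, so depth in repeats also depends on mapping.

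The choice rests on depth, so depth is given as a description without a test. The limit fell on a common value. The median was exactly 2 reads in 586 of the chosen sequences, while 55 had a median of 1, 10 a median of 1.5 and 18 a median of 2.5. Just outside, 580 unplaced sequences had a median of exactly 3. The chosen sequences with the most positions at a median of 2.5 were LGUn_WGA1413_2, with 474 positions and a mean of 4.78 reads, and LGUn_WGA905_2, with 386 positions and a mean of 3.04 reads. The largest sequences just outside were LGUn_WGA185_2 and LGUn_WGA200_2, with a median of 3 and means of 3.66 and 3.71 reads. These values of the mean lie on both sides of the autosomal mean of 3.82 reads, so these sequences at the limit are separated by the median and not by the mean. Away from the limit the means differed as well. The median of the means was 3.12 reads in the chosen sequences and 8.82 in the remaining unplaced ones. The upper quartile of the former, 3.73, lay under the lower quartile of the latter, 5.30. Chromosomes fall under the same limit. The median was under 3 in 12 of the 13 sequences of the X and in 31 of the 163 autosomal sequences, while 131 autosomal sequences had a median of exactly 3.

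The tables list no position without a read, which hides the shortfall of thinly covered sequences. Depth was therefore also measured as the mean number of reads in 1 replicate at the positions listed in the other, with 0 where no read was found. This was divided by the value of the autosomes and is called relative depth. The chosen sequences had 2.31 reads of replicate 2 at positions listed in replicate 1, where the autosomes had 2.43 and the X had 2.00. In the other direction they had 1.56 reads of replicate 1, where the autosomes had 1.70 and the X had 1.40. Their relative depth was 0.953 and 0.916, or 0.934 ± 0.0257 (SD, n = 2), and that of the X was 0.825 in both directions. The remaining unplaced sequences had a relative depth of 4.84 ± 0.195 (SD, n = 2). Pooled over positions, the unplaced sequences with a low median were thus covered between the X and the autosomes, and the word low describes their median better than their mean. A deeply covered position is listed more often, so uneven coverage raises this measure. Counted per base from the first to the last listed position, where bases without a listed position enter, their reads amounted to 0.735 times those of the autosomes, and the X reached 0.893. The choice and the depth can be kept apart by choosing on 1 replicate alone, with at least 30 positions and a median under 1.5 reads. The 383 sequences chosen on replicate 1 had a relative depth of 0.802 in replicate 2. The 230 chosen on replicate 2 had one of 0.700 in replicate 1.

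Reads were spread unevenly over the positions. A single read covered 36.0% of the positions of the chosen sequences, against 34.3% on the X and 32.5% on the autosomes. From 5 to 9 reads covered 22.3% of their positions, against 23.2% on the X and 27.3% on the autosomes. More than 20 reads covered 0.545%, against 0.176% on the X and 0.322% on the autosomes, and these 4681 positions took 6.03% of their reads. So the chosen sequences had both more positions at 1 read and more positions at high depth than the chromosomes. The mean was 3 or more reads in 381 of the 669, and it was above the autosomal mean in 155.

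**Figure D1:**
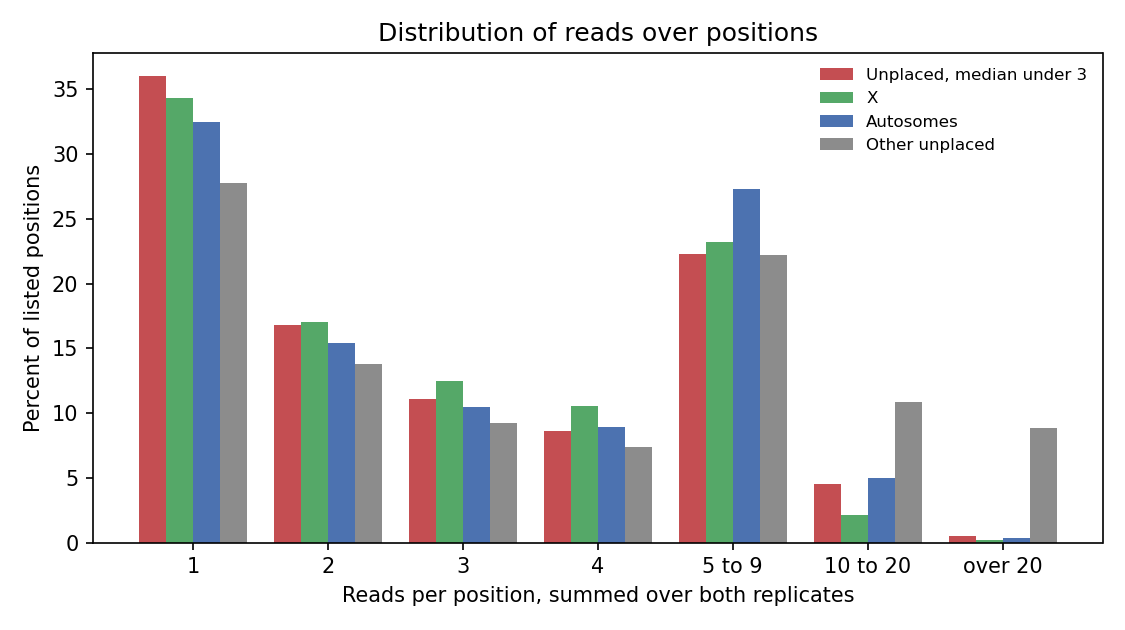
Percent of the listed positions (vertical axis) by the number of reads summed over both replicates (horizontal axis), for the chosen unplaced sequences, the X, the autosomes and the remaining unplaced sequences. The chosen sequences have the tallest bar at 1 read (36.0%), and the remaining unplaced sequences stand out at more than 20 reads.

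High depth was marked in a few members. LGUn_WGA997_2, with 279 positions, had a median of 2 and a mean of 14.7 reads, and up to 597 reads at 1 position. Its 1896 reads in replicate 1 and 2214 in replicate 2 gave it the highest relative depth of the chosen sequences, 4.60, although 34.4% of its positions had a single read. LGUn_WGA218_2 had 10198 positions over 92519 bases with a median of 2 and a mean of 7.48 reads, and 13.9% of its positions had at least 10 reads and 9.34% more than 20. Its relative depth was 2.23 with the reads of replicate 2 and 2.13 with those of replicate 1, so the excess appeared in both libraries. Among members with at least 300 positions, the next after LGUn_WGA218_2 was LGUn_WGA1627_2 at 1.79. The highest number of reads at any position was 1360, on LGUn_WGA239_2, whose relative depth was 1.07. More than 100 reads were found at 148 positions on 17 of the 669 sequences.

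The sequences differed widely in size. The number of positions ranged from 30 to 126680 with a median of 130, and the span from the first to the last listed position from 207 to 1175204 bases with a median of 1283. The 24 sequences with at least 10000 positions held 67.3% of all their positions, and 14.7% lay on LGUn_WGA177_2 alone. Values pooled over positions therefore describe mainly these, while counts of sequences describe mainly the short ones.

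Relative depth differed between classes of size, where size is the number of listed positions, which itself falls where coverage is thin. The 24 largest had a pooled relative depth of 0.955 ± 0.0377 (SD, n = 2) and ranged from 0.766 to 2.18. The 58 with at least 1000 and under 10000 positions reached 0.889 ± 0.00336 and the 78 with at least 300 and under 1000 positions 0.882 ± 0.00305. In the 271 with at least 100 and under 300 positions it was 0.968 ± 0.0199, and in the 238 with fewer than 100 positions 0.718 ± 0.00953. The shortest class was thus the only one whose pooled depth lay under that of the X. From the shortest class to the largest, the median over sequences was 0.669, 0.857, 0.808, 0.858 and 0.959. In the same order, 166, 99, 36, 20 and 1 sequences lay under the lowest X sequence, so many in the middle classes did too. In the shortest class 15.2% of the positions lay within 50 bp of an end. Within 50 bp of the first or last listed position the relative depth of the chosen sequences was 0.678, and it was 1.02 at 50 bp or more and under 100 bp, and 0.986 at 100 bp or more and under 250 bp. When these outer positions were left out, which was chosen after seeing the data, the shortest class rose from 0.718 to 0.747. The first 50 bp were low in both replicates, at 0.663 and 0.693.

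**Figure D2:**
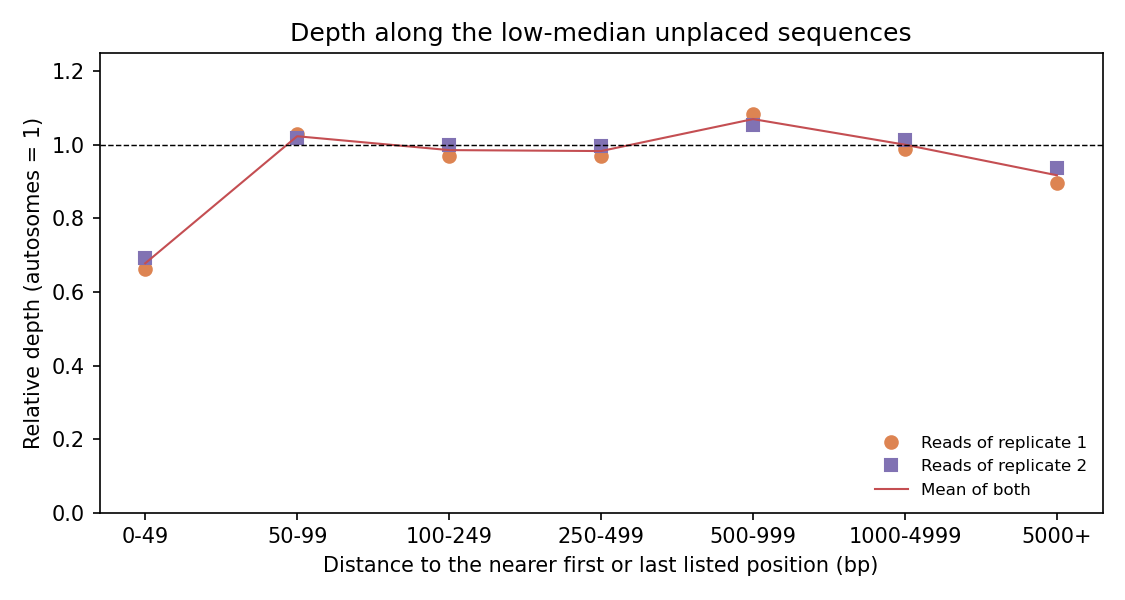
Relative depth of the chosen unplaced sequences (autosomes = 1) by distance from the nearer of the first and last listed position, for the reads of each replicate and their mean. Only the outermost 50 bp fall well under 1, to 0.678 on average.

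The relative depth of single sequences was similar in the replicates where many positions were listed. Over the 160 members with at least 300 positions, Pearson's r between the relative depths from the reads of the replicates was 0.912 and Spearman's rho was 0.901. These points share the autosomal reference and the base composition of their sequence, so the values are a description. The larger of the relative depths exceeded the smaller by a factor of 1.07 at the median and of 1.54 at most.

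Among the 82 members with at least 1000 positions, which held 88.3% of the positions, 39 lay within the range of the X sequences (0.783 to 1.00) and 22 lay above it. The other 21 lay under the lowest X sequence, and 12 of them did so in both replicates. The lowest was LGUn_WGA1097_2, with 1388 positions, 1330 reads in replicate 1, 1930 reads in replicate 2 and a relative depth of 0.515. No member of this size lay under 0.5. With as many males as females, a single-copy sequence carried by males alone would have 0.25 and the X 0.75. The X measured 0.825, so these values are no exact scale for this measure. Whether a member comes from the y was not tested. The autosomal sequences ranged from 0.820 to 3.01, and 55 of the 82 lay in that range, which overlaps that of the X. A single sequence of this kind can therefore not be assigned to the X or to an autosome by its depth.

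**Figure D3:**
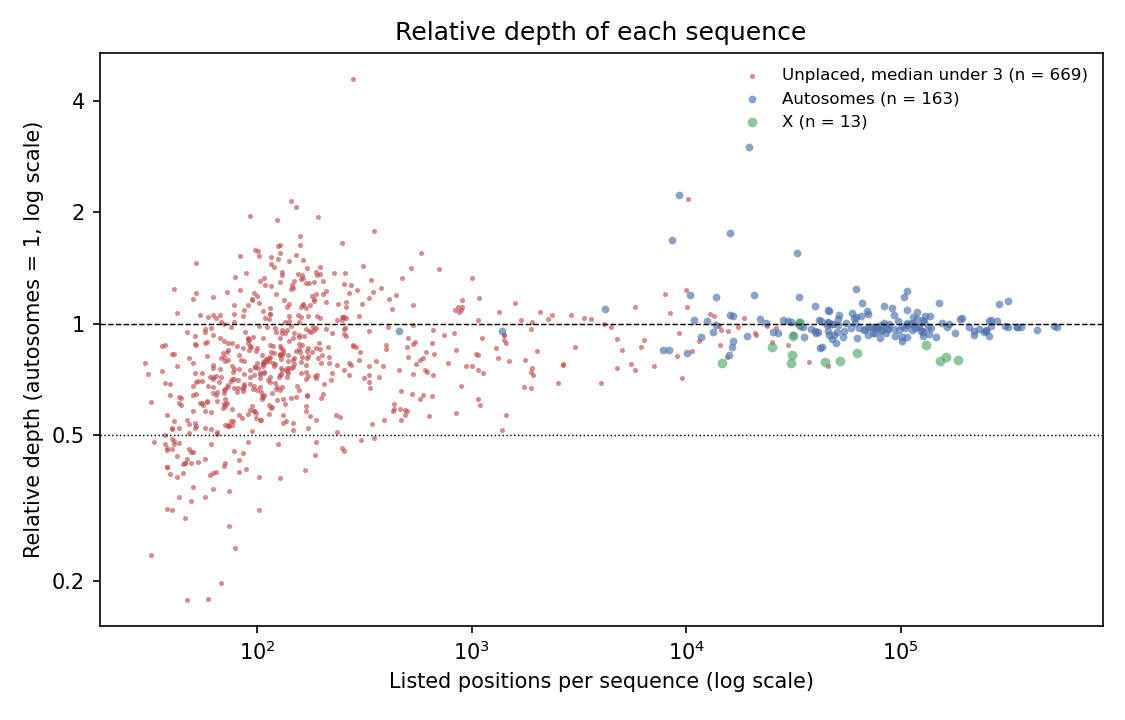
Relative depth of each sequence (autosomes = 1, dashed line) against its number of listed positions, both on log scales, for the 669 chosen unplaced sequences, the 163 autosomal and the 13 X sequences. The values fan out towards short sequences, and all members under 0.5 (dotted line) have at most 350 positions.

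A relative depth under 0.5 was found for 64 members, and for 39 of them it was under 0.5 with the reads of either replicate. They were short, with a median of 51.5 and at most 350 positions, and together they held 4987 positions, which is 0.580% of the positions of all members. Only 1 of the remaining unplaced sequences and none of the chromosomal ones lay under 0.5. The remaining unplaced sequences have a median of 3 or more by the rule, and the shortest chromosomal sequence had 457 positions. These counts therefore follow from the rule and from size and are no comparison. LGUn_WGA1220_2 was lowest with 0.178, from 24 reads in replicate 1 and 46 in replicate 2 at 47 positions. LGUn_WGA1485_2 reached 0.179 with 42 and 40 reads at 59 positions. These counts are small, and 1 molecule is counted at each cytosine that it covers, so the depth of such a sequence rests on few fragments. Both were chosen for mention after their values were seen. Among members with at least 300 positions, LGUn_WGA2003_2 was lowest with 0.484, from 242 and 432 reads, followed by LGUn_WGA2036_2 with 0.490, from 324 and 468 reads. The relative depth of LGUn_WGA2003_2 was 0.587 with the reads of replicate 2 and 0.381 with those of replicate 1, and that of LGUn_WGA2036_2 was 0.496 and 0.484, so the replicates were close for only 1 of them.

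For scale, chromosomes were divided into blocks of 100 consecutive listed positions, which were chosen after the sizes of the members were seen. The median was under 3 reads in 41.6% of the 163705 autosomal blocks and in 61.3% of the 9550 blocks of the X. It was under 3 in 64.6% of the blocks of the members and in 27.7% of those of the remaining unplaced sequences. Among whole unplaced sequences with at least 30 positions, which differ in size from blocks, 31.7% had a median under 3. The relative depth was under 0.5 in 0.283% of the autosomal blocks and in 0.796% of the X blocks, while 3.32% of the members with at least 100 and under 300 positions and 22.3% of those with fewer than 100 were under it. Members with fewer than 100 positions are smaller than a block, so their depth scatters more. Blocks of the members themselves were under 0.5 in 2.85% of 8249 cases, and those of the remaining unplaced sequences in 0.122% of 17183. Short stretches with a median under 3 were therefore common on the chromosomes, and stretches under 0.5 were rare there. The members were chosen for low depth, so this difference was not tested. Copy number, presence in males only and loss of reads in mapping cannot be told apart from depth alone.

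The listed positions were sparser than on the chromosomes, a property that the rule did not use directly, although thin coverage leaves more positions unlisted. The chosen sequences had 9.85 listed positions per 100 bases of span, while the autosomes had 12.6, the X 13.1 and the remaining unplaced sequences 13.0. Among sequences with at least 3000 positions, 37 of 44 chosen sequences had fewer than 12 per 100 bases. So did 74 of 161 autosomal, 2 of 13 X and 30 of 113 remaining unplaced sequences, so sparse sequences were not confined to the chosen ones. Gaps of more than 240 bases between listed positions made up 9.87% of the span of the chosen sequences. They made up 5.17% on the autosomes, 3.72% on the X and 10.9% on the remaining unplaced sequences. Without these gaps the chosen sequences still had 10.9 positions per 100 bases, against 13.2 on the autosomes. Their longest gap was 104643 bases, against 109807 on the autosomes, 21898 on the X and 123396 on the remaining unplaced sequences. Of the positions of the chosen sequences, 50.5% were listed in both replicates, against 54.8% on the autosomes and 51.4% on the X. Sequence composition was not analysed here, so fewer cytosines and fewer covered cytosines cannot be told apart.

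The large members are described by density, where the split at 12 positions per 100 bases was chosen after seeing the values. The rule bears on their depth here, because a dense sequence at autosomal depth can reach a median of 3 and is then not a member. LGUn_WGA200_2 is such a sequence, with 13.6 listed positions per 100 bases and a relative depth of 0.968. Of the 44 members with at least 3000 positions, 37 had fewer than 12 listed positions per 100 bases, with a median relative depth of 0.959 and a range from 0.691 to 2.18. In these a median of 5.31% of the positions had at least 10 reads. The other 7 had at least 12.6 positions per 100 bases, a median relative depth of 0.778 and a range from 0.746 to 0.944, and a median of 2.01% of their positions had at least 10 reads. The 11 X sequences of that density had a median relative depth of 0.813 and 2.09% of positions with at least 10 reads, and the 87 autosomal ones 0.992 and 5.16%. The 74 sparse autosomal sequences had 0.965 and 5.24%. The chromosomal sequences were not chosen by depth, so these values stand side by side without a comparison. Of the 7 dense members, 6 lay between 0.746 and 0.814, 4 of them under the lowest X sequence, and LGUn_WGA268_2 lay at 0.944.

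**Figure D4:**
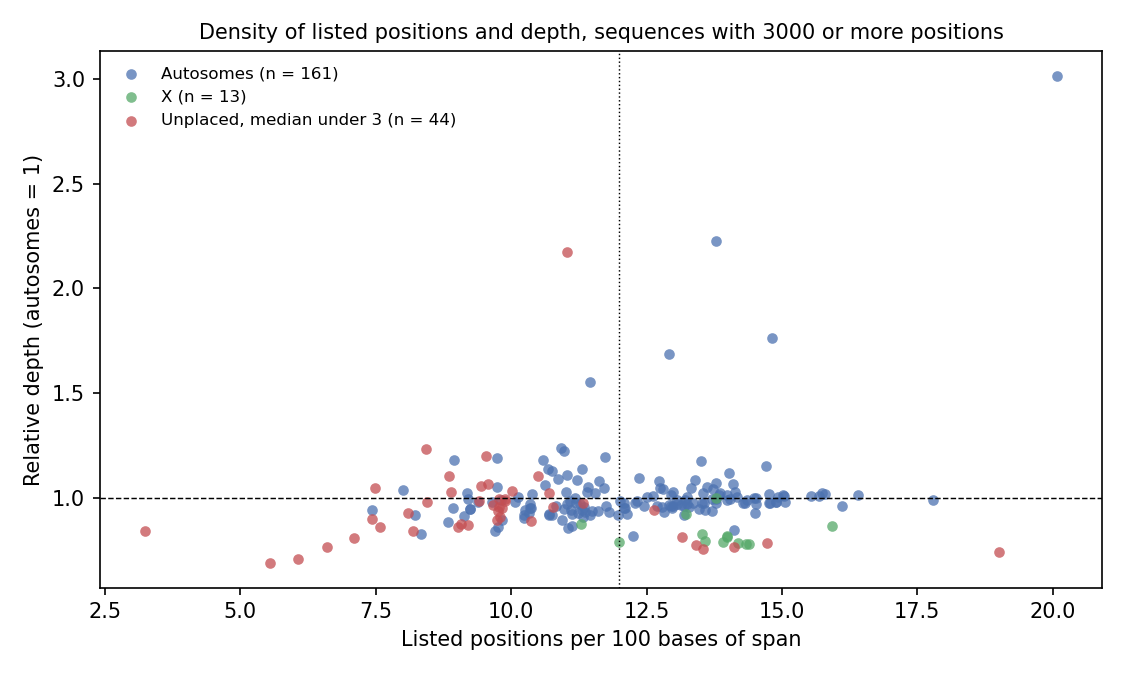
Relative depth (autosomes = 1) against the listed positions per 100 bases of span, for sequences with at least 3000 positions: 161 autosomal, 13 X and 44 chosen unplaced sequences. Right of the dotted line at 12, 6 of the 7 unplaced sequences lie between 0.746 and 0.814, and left of it the median of the 37 is 0.959, while unplaced sequences with a median of 3 or more are not drawn.

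LGUn_WGA177_2, the largest member, was sparse. It had 126680 positions over 1175204 bases, 192600 reads in replicate 1 and 272275 in replicate 2, a mean of 3.67 reads and a relative depth of 0.958. LGUn_WGA186_2 had 32645 positions, 51554 and 72028 reads and a relative depth of 0.997, and LGUn_WGA181_2 had 29662 positions, 41757 and 59270 reads and one of 0.876. LGUn_WGA223_2 and LGUn_WGA193_2, the next in size, were dense. LGUn_WGA223_2 had 45738 positions, 60783 and 79868 reads and a relative depth of 0.766, with no position over 22 reads. LGUn_WGA193_2 had 37149 positions, 50445 and 66597 reads and a relative depth of 0.788. LGUn_WGA223_2 lay under the lowest X sequence with the reads of either replicate, at 0.753 and 0.779. LGUn_WGA193_2 lay on either side of it, at 0.776 and 0.801.

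Replicate 1 contributed 42.1% of the reads of the chosen sequences, 42.7% of those of the autosomes and 42.6% of those of the X. Of the 166 members with at least 1000 reads, 127 lay within the range of the chromosomal sequences (40.5% to 45.4%), 17 below it and 22 above it. The share was lowest in LGUn_WGA719_2, with 524 of 1440 reads in replicate 1 (36.4%), and LGUn_WGA1278_2, with 629 of 1640 (38.4%). It was highest in LGUn_WGA454_2, with 562 of 1103 reads (51.0%), and LGUn_WGA1392_2, with 4013 of 8161 (49.2%). Over all members, including those with few reads, the share ranged from 14.1% to 65.5%.

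Non-conversion does not enter the rule and could be compared between classes of sequence. In replicate 1, 509 of 1295409 reads of the chosen sequences were unconverted, which is 0.0393% (95% Wilson interval 0.0360% to 0.0429%). In replicate 2 it was 1045 of 1782099 reads, or 0.0586% (0.0552% to 0.0623%). The mean was 0.0490% ± 0.0137 (SD, n = 2), and replicate 2 exceeded replicate 1 by a factor of 1.49. On the autosomes the rates were 0.0380% and 0.0558%, on the X 0.0393% and 0.0556%, and on the remaining unplaced sequences 0.0388% and 0.0592%. The spread between the replicates was larger than any difference between classes of sequence. The intervals allow for counting error alone and take no account of molecules that cover several cytosines.

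**Figure D5:**
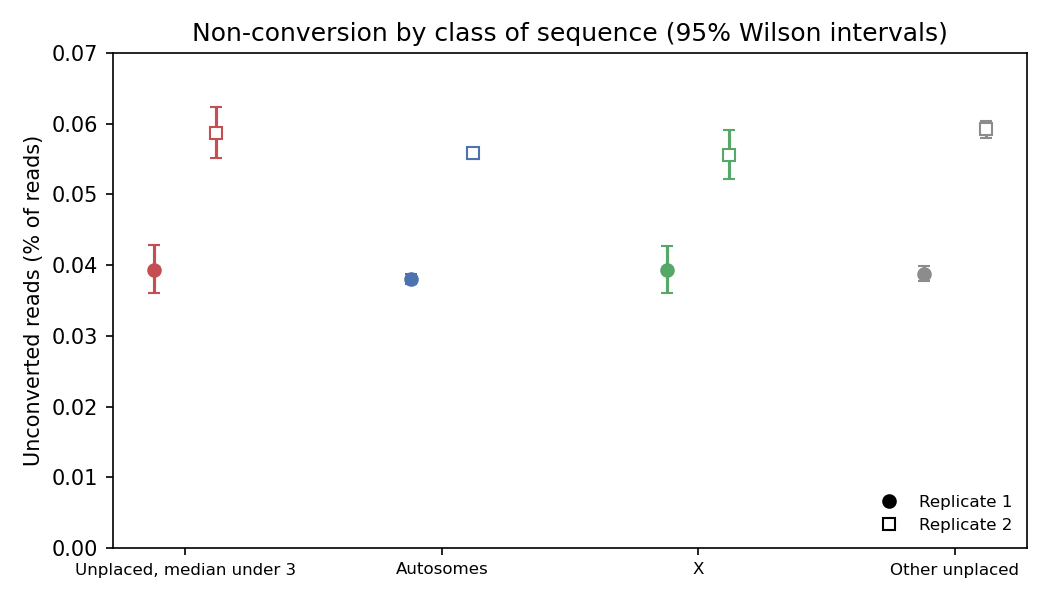
Unconverted reads as a percent of all reads for 4 classes of sequence, in replicate 1 (filled circles) and replicate 2 (open squares), with 95% Wilson intervals. In each class replicate 2 lies above replicate 1, and within a replicate the chosen sequences lie beside the autosomes and the X.

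In a two-sided Fisher's exact test of the read counts, no difference between the chosen sequences and another class passed the threshold in either replicate, with Benjamini-Hochberg adjustment over 6 tests. The test compares the reads of these libraries. Against the autosomes the odds ratio was 1.03 in replicate 1 (95% interval 0.945 to 1.13, Fisher's exact test, adjusted p = 0.950) and 1.05 in replicate 2 (0.987 to 1.12, adjusted p = 0.696). Against the X it was 1.00 (0.886 to 1.13, Fisher's exact test, adjusted p = 1) and 1.05 (0.967 to 1.15, adjusted p = 0.696). Against the remaining unplaced sequences it was 1.01 (0.925 to 1.11) and 0.991 (0.929 to 1.06), with an adjusted p of 0.954 in each. A model over the 832 member and autosomal sequences that allows for the spread between sequences gave an odds ratio of 1.04 (0.990 to 1.10, quasi-binomial model, p = 0.110). Each sequence entered once for each replicate, and these entries were treated as independent. The interval therefore describes sequences within these 2 libraries and not a spread between pools of eggs.

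Non-conversion was then compared with the autosomes at 5 levels of coverage per site, without a test. Positions with a single read had 0.0342% in replicate 1 and 0.0442% in replicate 2, and the autosomes had 0.0350% and 0.0464% there. At 5 to 9 reads the values were 0.0432% and 0.0693%, where the autosomes had 0.0392% and 0.0595%. The intervals in replicate 2 did not overlap there, with 0.0624% to 0.0768% in the chosen sequences and 0.0581% to 0.0609% on the autosomes. At 20 or more reads they did not overlap in replicate 2 either, but in the opposite direction, with 20 of 63504 reads, or 0.0315% (0.0204% to 0.0486%), in the chosen sequences and 0.0580% (0.0534% to 0.0630%) on the autosomes. In replicate 1 the intervals overlapped at every level. At 2 to 4 reads the chosen sequences had 0.0391% and 0.0591%, against 0.0381% and 0.0559% on the autosomes, and at 10 to 19 reads 0.0449% and 0.0617%, against 0.0388% and 0.0602%. From 2 to 19 reads the chosen sequences thus lay above the autosomes in both replicates, with overlapping intervals except at 5 to 9 reads in replicate 2. In the members with fewer than 100 positions the rates were 0.0421% (8 of 18997 reads) and 0.0431% (11 of 25496 reads), and in the 24 largest 0.0413% and 0.0574%. The 64 members with a relative depth under 0.5 had 3 unconverted of 10077 reads, or 0.0298% (95% Wilson interval 0.0101% to 0.0875%), an interval that includes the rates of both replicates.

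No unconverted read was found in 482 of the 669 members. They were short, with a median of 330 reads, which allows a rate of up to 0.909%, and the most deeply covered had 4808 reads, which allows up to 0.0624%. If every read had the overall rate of its replicate, 460 members without an unconverted read would be expected. An unconverted read was found in 107 members in replicate 1, in 152 in replicate 2 and in 72 in both. Each member was tested for a difference from the overall rate of its replicate, together with all 2287 sequences with at least 30 positions (two-sided exact binomial test, Benjamini-Hochberg adjustment). No member differed in both replicates, with percent called 0 among all sequences, and none at an unadjusted p under 0.05 in both. In replicate 2 alone 1 of the 669 differed, where 0.437% of all sequences did. This was LGUn_WGA338_2, named after its values were seen, with 0 of 556 reads unconverted in replicate 1 and 5 of 772 in replicate 2 (adjusted p = 0.0238, exact binomial test). Its 5 unconverted reads lay within 64 bases, from position 10874 to position 10937, and whether they come from 1 molecule was not tested.

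Of the 5 members with the most unconverted reads, 4 were also the 4 largest. LGUn_WGA177_2 had 83 and 182 (0.0431% and 0.0668%), LGUn_WGA223_2 had 23 and 48 (0.0378% and 0.0601%), and LGUn_WGA193_2 had 14 and 55 (0.0278% and 0.0826%). LGUn_WGA186_2 had 25 and 37 (0.0485% and 0.0514%), and LGUn_WGA197_2 had 17 and 43 (0.0427% and 0.0751%). The fifth largest, LGUn_WGA181_2, had 17 in each replicate (0.0407% and 0.0287%). None of these differed from the overall rate in either replicate, and the lowest adjusted p among them was 0.199 (exact binomial test, LGUn_WGA181_2 in replicate 2).

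Unconverted reads fell on 507 sites in replicate 1 (0.0848% of the listed sites) and on 1041 sites in replicate 2 (0.150%), and on the autosomes on 0.0849% and 0.148%. Exactly 1 read was unconverted at 506 and 1038 of these sites. In replicate 2 they lay close together. Of its unconverted sites in the chosen sequences, 12.5% had another within 10 bp, against 1.58% in replicate 1, and on the autosomes it was 12.5% and 1.15%. When sites at most 50 bp apart were joined, replicate 1 had 8 groups of 2 sites and none of 3 or more, while replicate 2 had 29 groups of 3 or more, with 11.6% of its unconverted sites. The largest had 7 unconverted among 11 listed sites over 18 bases of LGUn_WGA193_2, from position 214881 to position 214898, where 7 of 21 reads were unconverted in replicate 2 and 0 of 12 in replicate 1. On LGUn_WGA177_2, 6 of 7 listed sites between positions 1003552 and 1003593 had 1 unconverted read each, 6 of 39 reads in all, and replicate 1 had 0 of 26. On LGUn_WGA327_2, all 6 listed sites between positions 10313 and 10356 had 1, with 6 of 34 reads, and replicate 1 had 0 of 27. In all 10 groups of 5 or more sites, no read of replicate 1 was unconverted. In the 8 groups of replicate 1, no read of replicate 2 was unconverted. The smaller groups of replicate 2 were not compared with replicate 1.

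Only 3 of the 433596 sites of the chosen sequences that were listed in both replicates had an unconverted read in each, which is 0.000692%, where 0.00944% of all such sites had one. The autosomes had 0.000891%, the X 0.000610% and the remaining unplaced sequences 0.0870%, the last at far higher coverage. Such a site is more likely where more reads are found, and the rule split the unplaced sequences by depth. These shares are therefore no comparison between the classes. At the overall rates the coverage of the sites gives 1.54 such sites in the members, where 3 were found, and 1.42 on the X, where 3 were found. It gives 44.8 on the autosomes, where 80 were found, and 748 on the remaining unplaced sequences, where 951 were found. Of the 3 sites in the members, 2 lay on LGUn_WGA177_2. At position 1085480, 3 of 11 reads were unconverted in replicate 1 and 3 of 22 in replicate 2, or 18.2% together. At position 54235 it was 1 of 4 and 1 of 2 reads. At position 671 of LGUn_WGA1733_2 it was 1 of 12 and 1 of 9 reads.

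Each site with 5 or more reads was also set against the overall rate of its replicate, to find sites with an excess of unconverted reads (exact binomial test, one-sided, adjusted over all sites by Benjamini-Hochberg). Of the 23890 sites of the chosen sequences that could be tested in both replicates, 0 passed in both, where percent called was 0.000809 over all sites, and 2 had an unadjusted p under 0.05 in both. Position 1085480 of LGUn_WGA177_2 passed in replicate 1 (adjusted p = 0.00121, exact binomial test), the only member site to do so among 45998, where percent called was 0.00112. It did not pass in replicate 2 (adjusted p = 0.0749, exact binomial test), where 0 of 94674 member sites passed and percent called was 0.000338. With a minimum of 10 reads in place of 5, which leaves fewer sites to adjust for, this site passed in both. Within 100 bp of it, 83 other positions were listed with a median of 11 and up to 72 summed reads, which is above the median of 2 of its sequence. At these other positions 0 of 648 reads were unconverted in replicate 1 and 1 of 1053 in replicate 2, so the unconverted reads stood at this position and not at its neighbours. The cause was not tested. Only 2.78% of the positions of the chosen sequences had at least 5 reads in both replicates, and methylation at the others was not detectable at this depth by this test.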

How the data were processed

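WGBS was performed by the authors on 2 replicates of pooled eggs, who deposited, for each listed position, the counts of unconverted and of converted reads without normalization. Per the methods of the study, mapping used BSMAP 2.5 and assembly version 3.0, and duplicates were removed with Picard. The submitters' processing notes name Trimmomatic 0.32. How reads with several matches were treated is not given in the sources used here.

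The table of replicate 1 sums to 42534665 reads over 14503020 sites, and that of replicate 2 to 55723118 reads over 16480367 sites. These sums count a read at each listed position that it covers, and are not the numbers of sequenced reads. Both tables were joined by sequence and position, and coverage was the sum of both counts. Whether the egg pools came from separate collections is not stated, so the spread between them may be technical. Sequences and lists were chosen with earlier results of these data known. Sequences named are the 5 with most positions, up to 5 with most unconverted reads, the nearest on each side of the limit, the extremes of relative depth (at least 300 positions) and of the share of reads in replicate 1 (at least 1000 reads), and those with a site unconverted in both replicates or passing a test. Others were named after their values were seen and are marked so, or illustrate the highest values. Tests ran over all sites or sequences. The site test and the sequence test were tried on simulated counts, with fully unconverted sites and with sequences of many reads at a raised rate. Short sequences at a raised rate, Fisher's exact test and the quasi-binomial model were not tried in this way. A genome of this assembly was not used here, so no sequence is printed and composition, genes and repeats were not analysed here. Limits, coverage minimums, ends, weighting, backgrounds and replicates were varied. Tests used scipy 1.17.1 and statsmodels 0.14.6 and tables pandas 2.3.3 and numpy 2.4.6, under Python 3.11.15. Figures used matplotlib 3.10.9.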

Additional observations from a re-analysis of the deposited data

How the results depend on the processing

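The number of chosen sequences depends on the limits, because most medians were 2 or 3. It was 431 with at least 100 positions, 65 with a median under 2, 1259 with a median under 4 and 293 when the mean in place of the median had to be under 3. With 1 replicate left out it was 230 to 383. The relative depth of 0.934 fell to 0.735 per base of span. It fell to 0.802 when the sequences were chosen on replicate 1 and read in replicate 2, and to 0.700 the other way round. These were smaller sets under a stricter cut, so the values also differ in the sequences chosen. Under the other alternatives it was the same within the spread between replicates, which the value of 1 direction alone cannot leave. Under every alternative run, non-conversion stayed within the SD between replicates. This SD of 0.0137 is wide beside the rate, and a single replicate cannot fall outside it. With a median under 2 the rate was 0.0385%. No tested alternative for the odds ratio against the autosomes passed the threshold, nor did the X or the remaining unplaced sequences in their place. Reweighting the autosomes to the coverage of the chosen sequences gave an odds ratio of 1.05, without a test. With 1 replicate left out the mean rate of 0.0490% was 0.0393% to 0.0586%. At least 10 reads per site gave 1 site above the background in both replicates in place of 0, the site on LGUn_WGA177_2. A single replicate gave 0 to 1 such sites and 0 to 1 sequences that differ from the overall rate. Of the 3 sites unconverted in both replicates, 1 was left without positions over 20 reads. No paired analysis was possible because there is only 1 group. With a median of 2 reads per position, depth limits what single sites and short sequences can show.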
